A study of Mus musculus with 24 samples.

Results

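The step from zeitgeber time 12 (ZT12) to ZT16 was described in alpha and beta cells of the mouse pancreas. The 4 libraries at ZT16 were set against the 4 at ZT12, with 2 libraries of each cell type at each time. These 8 libraries were picked by the time in their labels out of 24, which cover 6 times of day in both cell types. Zeitgeber time counts hours of the lighting cycle and ZT12 is by convention lights-off, so the step spans the first hours of darkness, when mice become active and feed. All 8 libraries came from mice of 1 strain, labelled a triple reporter mouse, with no treatment named. In this strain, as known from work on it, a fluorescent protein driven by the proglucagon promoter marks alpha cells, another driven by the rat insulin promoter marks beta cells, and luciferase is fused to PER2, a clock protein. Each library's labels give the cell type, the ZT and the clock hour at which islets were isolated, and give no age, sex, lighting schedule, feeding, number of mice or day of handling. A difference between the times and a difference between days of handling therefore cannot be told apart.

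The mammalian clock is a loop of transcription. BMAL1 (gene Arntl) and CLOCK activate genes through E-boxes, among them the Per and Cry repressors, the REV-ERB repressors Nr1d1 and Nr1d2, and Dbp. The REV-ERBs and the ROR activators compete at ROR elements, through which Arntl, Cry1 and Nfil3 are controlled, so these genes run out of phase with Dbp. In islets the clock is known to time insulin and glucagon secretion and the genes of secretory granule release.

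Total RNA depleted of ribosomal RNA was sequenced, and the 8 libraries held 4944982 to 11250053 reads over 14027 genes. Levels are given as RPKM, reads scaled by gene length and library size. Differences are log2 values, ZT16 minus ZT12, with their standard error (SE) from limma, and a gene was called at an adjusted p under 0.05 (Benjamini-Hochberg over all genes). The genes of glucagon and insulin matched the labels. Gcg, the glucagon gene, was at 93.1 and 40.5 RPKM in the ZT12 beta libraries and 284 and 135 at ZT16. These were at most 0.287% of the alpha mean of the same time. Ins2, an insulin gene, reached at most 1.93% of the beta mean in an alpha library. The alpha libraries also held much RNA of another islet hormone. Ppy, the pancreatic polypeptide gene, averaged 29240 RPKM in alpha cells at ZT12 and 21330 at ZT16. Whether a group's 2 libraries stem from different mice is not in the labels, so p-values measure the spread between libraries, which may be technical. That spread was small here, with a median SD over genes of 0.0833 to 0.0956 on the log2 scale in the 4 groups of this step, against 0.113 to 0.261 in the groups at the other times. In such bulk samples fewer cells of a type and less RNA per cell cannot be told apart.

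Between ZT12 and ZT16, with cell type as a factor, 2876 of 14027 genes (20.5%) were called. Of these, 1603 (11.4% of all genes) rose and 1273 (9.08%) fell. Most changes were modest: the median fold was 1.52 among genes that rose and 1.41 among genes that fell, and 327 genes rose and 85 fell by at least 2-fold. Both ZT16 libraries lay beyond both ZT12 libraries, in the same direction in both cell types, for 6001 genes (42.8%), and 2696 of the called genes were among them. Genes that rose made up 55.7% of the calls, a share of 45.7% when each library was centred on its median and of 43.5% when transcript length and GC content were fitted. Fitted on the 8 libraries alone, 6016 genes were called. The count rested on single libraries to a degree. It was 1449 without ZT16 alpha replicate 1, 1633 without ZT12 alpha replicate 2, 1634 without ZT12 beta replicate 2, 1680 without ZT16 beta replicate 2, 1711 without ZT16 beta replicate 1, 1849 without ZT12 beta replicate 1, 1897 without ZT12 alpha replicate 1 and 2079 without ZT16 alpha replicate 2.

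Under the same fit the other 4-h steps of the day had fewer calls: 641 genes (4.57%) from ZT0 to ZT4, 63 (0.449%) from ZT4 to ZT8, 46 (0.328%) from ZT8 to ZT12, 15 (0.107%) from ZT16 to ZT20 and 1 (0.00713%) from ZT20 to ZT0. Neighbouring steps share libraries, the groups differ in replicate spread, and the difference between steps was not tested.

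**Figure D1:**
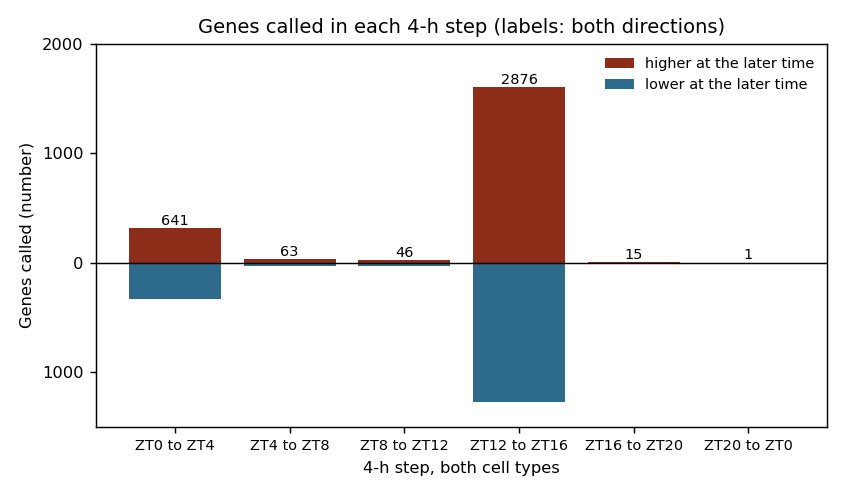
Genes called at an adjusted p under 0.05 (y axis, number of genes) in each 4-h step of the day (x axis, ZT), over both cell types, with genes higher at the later time drawn above 0, genes lower below it, and the sum of both printed on the bar. The step from ZT12 to ZT16 holds 1603 higher and 1273 lower genes, and the next in size, from ZT0 to ZT4, holds 641 in all.

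In alpha cells alone, 523 genes were called (3.73%), of which 348 rose (2.48%) and 175 fell (1.25%). In beta cells alone, 978 genes were called (6.97%), of which 594 rose (4.23%) and 384 fell (2.74%). Both counts depended on each library of the cell type. The alpha count was 5 without ZT16 alpha replicate 1, 21 without ZT12 alpha replicate 2, 91 without ZT12 alpha replicate 1 and 133 without ZT16 alpha replicate 2, and 316 to 332 when any beta library was left out, which touches only the shared estimate of spread. The beta count was 91 without ZT12 beta replicate 2, 100 without ZT16 beta replicate 2, 132 without ZT16 beta replicate 1 and 136 without ZT12 beta replicate 1.

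The alpha and beta steps, which share no library, were set side by side. In all, 226 genes were called in both cell types, 43.2% of the alpha calls and 23.1% of the beta calls, and 225 of them changed in the same direction. Over all genes, 73.7% had the same sign in both, and the alpha and beta differences had a Pearson correlation of 0.62 and a Spearman correlation of 0.61 across genes, which are not independent replicates.

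The difference of the step between alpha and beta cells passed the threshold for 1 gene (0.00713%), and 858 genes had an unadjusted p under 0.05. It passed for 29 genes when the 8 libraries alone were fitted, and for 3 with length and GC content fitted. In the fit over all libraries the gene was Rhou, a small GTPase of the cytoskeleton, on chromosome 8 from 123653929 to 123663884 (GRCm38). Rhou was at 31.6 and 29.3 RPKM in alpha cells at ZT12 and 22.2 and 22.6 at ZT16, and at 1.86 and 1.89 in beta cells at ZT12 and 3.41 and 3.26 at ZT16. The groups did not overlap in either cell type, and the order of the times was opposite. Rhou fell by 0.44 in alpha cells (adjusted p 0.026) and rose by 0.81 in beta cells (adjusted p 0.00064), a difference of -1.25 ± 0.14 (SE, adjusted p 0.0014). The 4 genes with the next lowest p did not pass, each at an adjusted p of 0.21: Pold2, a DNA polymerase subunit, Scnn1b, a sodium channel subunit, Tmod1, a cap of actin filaments, and Spon2, a secreted matrix protein. Spon2 fell by 1.39 in beta cells, against -0.11 in alpha cells.

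**Figure D2:**
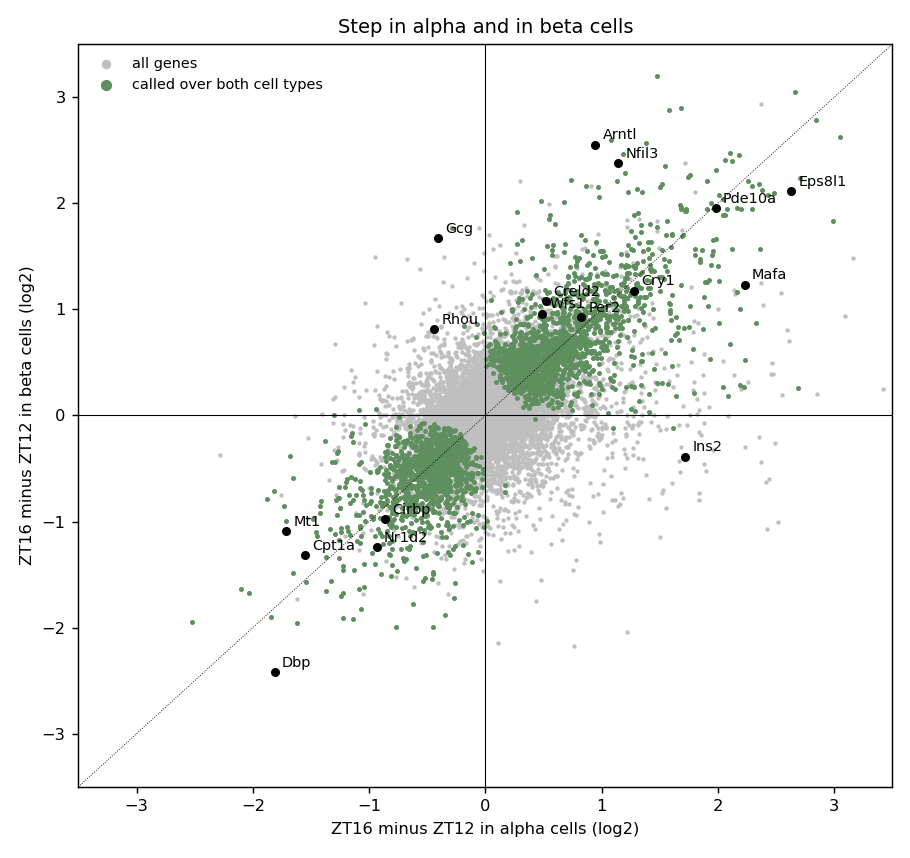
Log2 difference from ZT12 to ZT16 in alpha cells (x axis) against beta cells (y axis), 1 point per gene, with genes called over both cell types coloured and 3 genes outside the axes. The cloud runs along the diagonal (Pearson 0.62), with Dbp and Cpt1a low in both and Arntl and Pde10a high in both, and Rhou off the diagonal.

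A length trend ran through the whole step and touches every gene group below. Across the 13802 genes with a matched transcript, the log2 difference rose with transcript length, with a Spearman correlation across genes of 0.32 over both cell types, 0.35 in alpha cells and 0.24 in beta cells. In the tenth of genes with the shortest transcripts the median difference was -0.20, and 12.6% fell while 4.34% rose. In the tenth with the longest transcripts the median was 0.25, and 30.6% rose while 2.68% fell. The median transcript length was 4797 nt among genes that rose, 2538 nt among genes that fell and 3284.5 nt among all. The median difference of all genes was -0.01, and -0.05 with length and GC content fitted. With that adjustment 2678 genes were called, of which 1164 (8.43%) rose and 1514 (11.0%) fell, and 2026 of the 2678 were also called without it in the same direction. Library by library, the deviation of genes from their mean over the day correlated with transcript length at -0.27 and -0.28 in the ZT12 alpha libraries, -0.05 and -0.14 in the ZT12 beta libraries, 0.32 and 0.19 in the ZT16 alpha libraries and 0.28 and 0.20 in the ZT16 beta libraries (Spearman). All 4 ZT12 libraries lay below 0 and all 4 ZT16 libraries above it. No measure of RNA quality was used here, and its part in the trend was not tested. The part of this trend in any single group was not tested beyond the adjusted values given beside some of the groups.

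**Figure D3:**
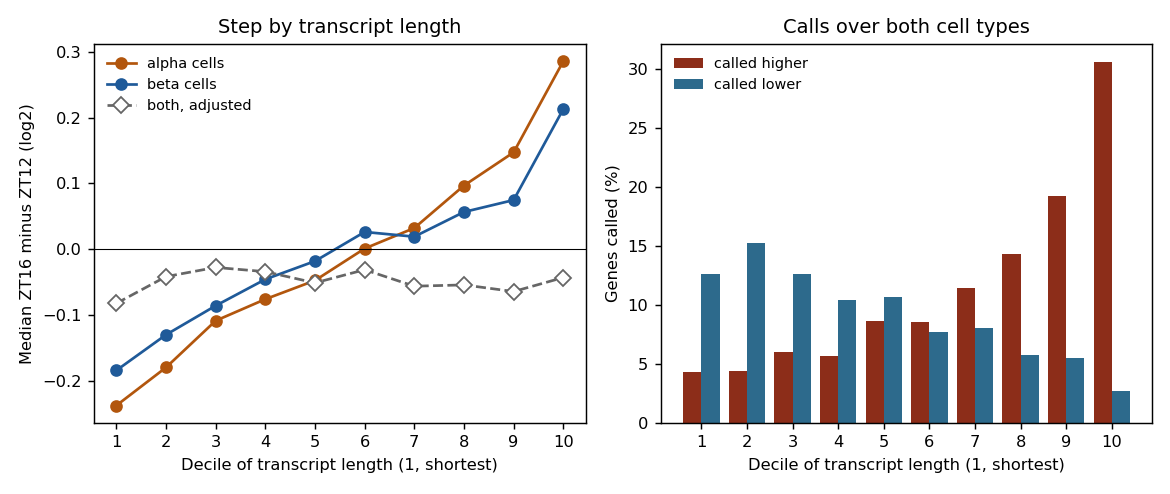
Left, median log2 difference from ZT12 to ZT16 (y axis) in 10 groups of genes ordered by transcript length (x axis, 1 the shortest), for alpha cells, beta cells and both with length and GC content fitted; right, the share of each group's genes called higher or lower over both cell types (y axis, percent). The medians climb from -0.24 to 0.29 in alpha cells and from -0.18 to 0.21 in beta cells while the adjusted ones lie between -0.08 and -0.03, and genes called higher go from 4.34% to 30.6%.

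The core clock changed in both arms of its loop. Of 21 clock genes measured, 6 rose, against 11.4% of all genes, and 7 fell, against 9.08%, with a median of -0.04. Leaving out each library in turn gave 5 to 6 higher and 5 to 7 lower.

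Dbp, the REV-ERB genes and Tef fell. Dbp, an E-box-driven transcription factor of the PAR bZIP family on chromosome 7 from 45705088 to 45710203, was at 25.1 and 28.7 RPKM in alpha cells at ZT12 and 7.26 and 7.95 at ZT16. In beta cells Dbp went from 35.9 and 43.3 to 7.77 and 6.89. All 4 ZT16 libraries lay far below all 4 ZT12 libraries, and the ZT12 means, 26.9 in alpha and 39.6 in beta cells, were the highest of the 6 times. Dbp fell by 2.12 ± 0.12 (SE, adjusted p 7.7e-08), the lowest p of all genes.

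Nr1d2, which encodes REV-ERB beta, was at 42.3 and 41.4 RPKM in alpha cells at ZT12 against 22.5 and 21.3 at ZT16, and at 52.6 and 52.7 against 22.1 and 22.3 in beta cells. The replicates were nearly identical beside the gap between times. Nr1d2 fell by 1.09 ± 0.10 (adjusted p 2.5e-05). Nr1d1, which encodes REV-ERB alpha, was at 5.92 and 6.91 RPKM against 2.44 and 3.27 in alpha cells and at 5.67 and 7.53 against 3.1 and 2.82 in beta cells, and fell by 1.15 ± 0.16 (adjusted p 0.00036). Tef, a second PAR bZIP factor, was at 23.2 and 22.7 RPKM against 15.7 and 15.3 in alpha cells and at 31.8 and 32.6 against 15.6 and 15.2 in beta cells, and fell by 0.81 ± 0.11 (adjusted p 0.00035). Their groups did not overlap. Ciart, a repressor of the BMAL1 and CLOCK pair that the files list as Gm129, was at 2.3 and 3.43 RPKM against 1.16 and 1.3 in alpha cells and at 7.3 and 8.18 against 1.65 and 2.37 in beta cells. Ciart was low throughout alpha cells and did not overlap between times in either cell type. It fell by 1.53 ± 0.33 (adjusted p 0.005). Smaller calls depended on single libraries: Bhlhe41, the E-box repressor DEC2 (fell by 0.35, adjusted p 0.022), was called in 4 of the 8 fits that each left out 1 library, and Rora, a ROR activator (fell by 0.25, adjusted p 0.03), in 1 of them.

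Arntl, Cry1, Nfil3 and Per2 rose. Arntl, on chromosome 7 from 113207465 to 113314126, was at 1.42 and 1.43 RPKM in alpha cells at ZT12 and 2.27 and 3.47 at ZT16, and at 0.421 and 0.693 in beta cells at ZT12 and 3.28 and 3.73 at ZT16. The ZT12 libraries were the low point: the means of 1.43 in alpha and 0.557 in beta cells were the lowest of the 6 times, against 12.2 and 13.6 at ZT0. Arntl rose by 1.75 ± 0.17 (adjusted p 4e-05). It rose by 0.95 in alpha cells (adjusted p 0.044) and by 2.55 in beta cells (adjusted p 0.0001), and the difference between them, -1.60 ± 0.35, had an adjusted p of 0.33.

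Cry1, a repressor that acts late in the cycle, was at 3.86 and 2.7 RPKM against 8.26 and 7.57 in alpha cells and at 5.44 and 4.45 against 10.6 and 11.8 in beta cells. The order was the same in both cell types, with no overlap. Cry1 rose by 1.23 ± 0.13 (adjusted p 5.5e-05). Nfil3, which encodes the repressor E4BP4 that competes with Dbp for D-boxes, was at 3.63 and 4.48 RPKM against 7.91 and 10.2 in alpha cells and at 1.93 and 1.37 against 7.3 and 10.8 in beta cells. Nfil3 was more variable between replicates than Cry1, and still separated by time in both cell types. It rose by 1.76 ± 0.34 (adjusted p 0.0031). Per2 was at 11.3 and 11.9 RPKM against 21.1 and 20 in alpha cells and at 12.9 and 11.5 against 23.7 and 22.8 in beta cells, and rose by 0.88 ± 0.21 (adjusted p 0.0088). The ZT16 means of Per2, 20.6 in alpha and 23.2 in beta cells, were the highest of the 6 times. Clock rose by 0.24 (adjusted p 0.024), a call held in 1 of the 8 fits that each left out 1 library.

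The other 8 clock genes did not pass the test. Per1 was at 14.7 and 16.3 RPKM against 26 and 25.5 in alpha cells, where the times did not overlap, and at 13.5 and 11 against 13.2 and 16.4 in beta cells, where they did. Its difference over both was 0.50 (adjusted p 0.29). Per3 was at 10.6 and 9.68 against 12.4 and 10.8 in alpha cells and at 7.46 and 7.22 against 5.55 and 5.09 in beta cells, higher at ZT16 in every alpha library and lower in every beta library, with a difference of -0.14 over both. Cry2 had a difference of -0.04, Bhlhe40 -0.15, Hlf -0.26, Rorb 0.53, Arntl2 0.67 and Npas2 0.69.

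**Figure D4:**
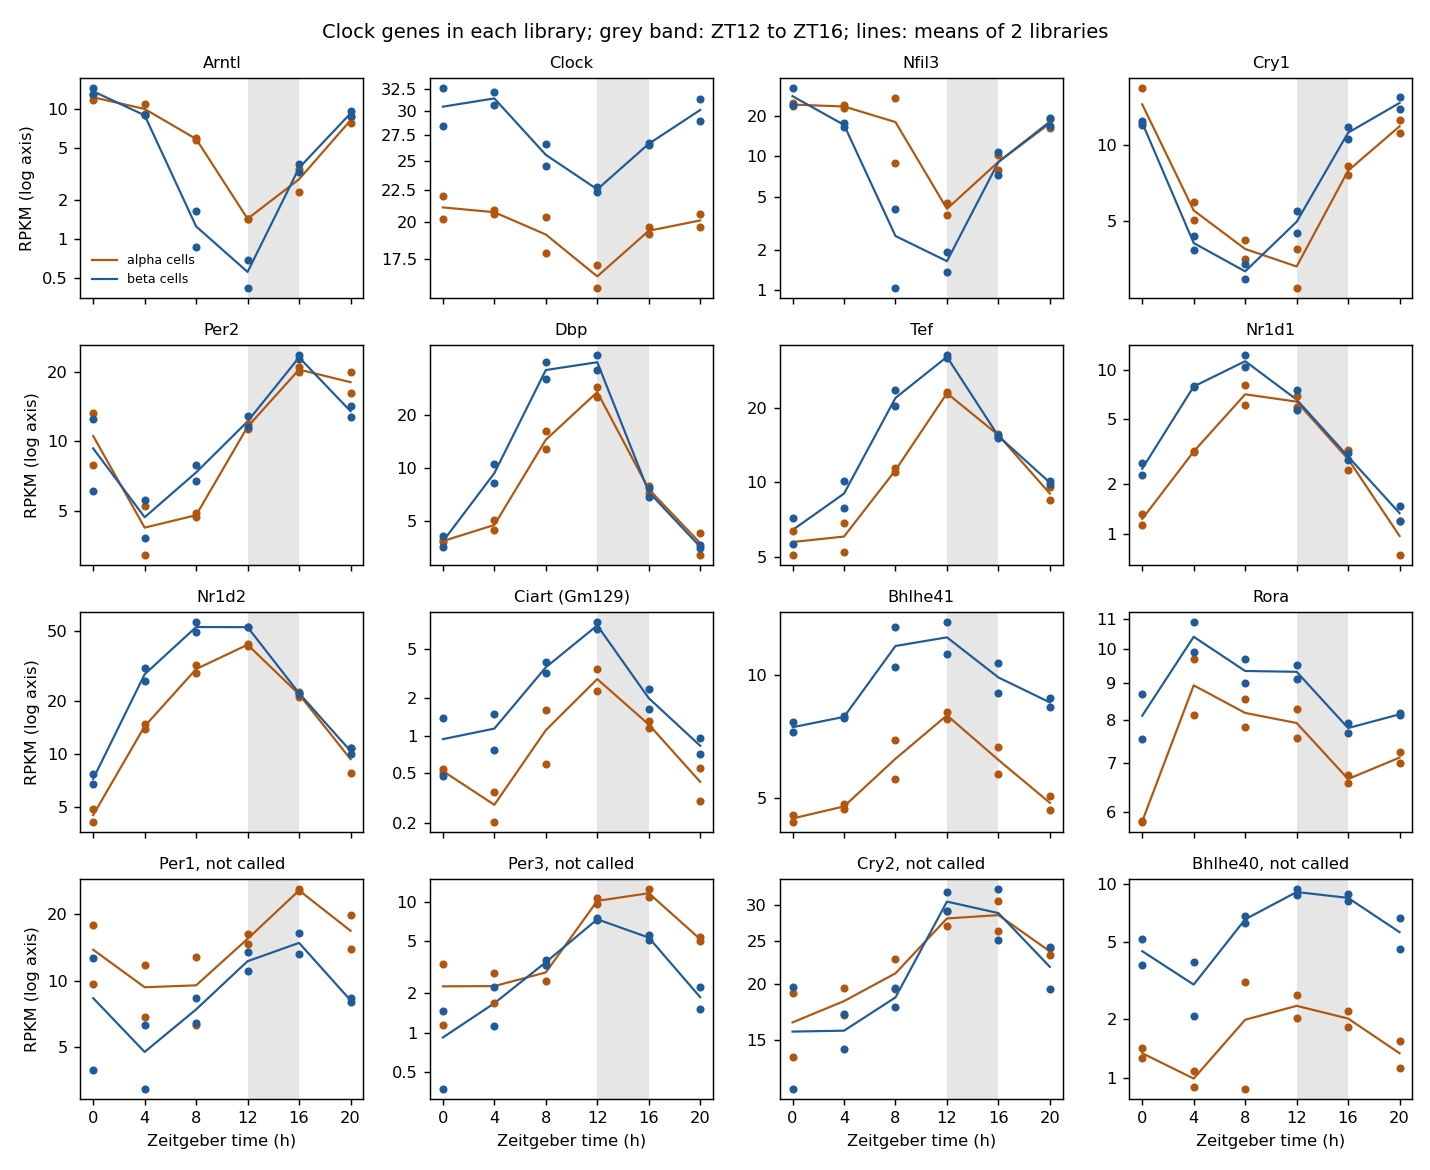
RPKM on a log axis (y) of 16 clock genes over the 6 times of day (x axis, ZT in hours), 1 point per library with lines through the means, alpha and beta cells in separate colours and the step from ZT12 to ZT16 shaded. Dbp, Nr1d1, Nr1d2, Tef and Ciart drop through the shaded span and Arntl, Cry1, Nfil3 and Per2 climb, in both cell types.

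Promoter windows of the clock genes were read because their members move in opposite directions. RefSeq promoters on GRCm38.p6, covering 250 bases before to 50 after each start, matched 10322 of the 14027 genes (73.6%) and 18 of the clock genes. The E-box CACGTG stood in 5 of these 18, against 7.15% of all promoters of this length, 11.8% of all measured genes, 10.5% of genes that rose and 13.8% of genes that fell. It was present in genes of both directions, as the following windows show, with the E-box in capitals, and in the last of them the ROR element in capitals, an A-rich flank followed by TAGGTCA. Both strands were searched.
Tef, fell by 0.81, chr15:81802526-81802571, plus strand: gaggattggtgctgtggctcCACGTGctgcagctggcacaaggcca
Ciart, fell by 1.53, chr3:95882319-95882364, minus strand: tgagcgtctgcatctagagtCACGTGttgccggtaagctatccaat
Cry1, rose by 1.23, chr10:85185089-85185134, minus strand: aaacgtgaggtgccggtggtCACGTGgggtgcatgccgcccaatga
Arntl, rose by 1.75, chr7:113207529-113207555, plus strand: gaaggcagAAAGTAGGTCAgggacgga
The E-boxes shown of Tef, Ciart and Cry1 begin 127, 116 and 60 bases before the start, and Ciart has further ones beginning 58 and 44 bases before it. The ROR element of Arntl begins 26 bases after its start, and it is the only clock promoter of the 18 with that motif, which stood in 0.174% of all measured genes, 0.253% of genes that rose and 0.107% of genes that fell. The D-box (TTATGTAA or TTACGTAA) stood in 1 of the 18, Per3. A match is a description of letters in a window, and no binding was measured.

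Outside the clock, genes of mitochondrial fatty acid use were among the lowest p of the genes that fell. Cpt1a, the carnitine transferase that admits long-chain fatty acids to mitochondria, on chromosome 19 from 3322334 to 3385733, was at 15.5 and 16 RPKM against 5.68 and 5 in alpha cells and at 19.2 and 20.1 against 7.85 and 7.83 in beta cells. Every ZT16 library was far below every ZT12 library. Cpt1a fell by 1.44 ± 0.13 (adjusted p 2.5e-05). Acaa2, the thiolase of the last step of beta-oxidation, was at 19.3 and 19.5 RPKM against 7.65 and 7.16 in alpha cells and at 28.3 and 23.8 against 9.88 and 10.6 in beta cells, and fell by 1.35 ± 0.14 (adjusted p 5.5e-05). In the list of fatty acid oxidation and lipid storage, 29 genes were measured, of which 5 fell and 3 rose, with a median of -0.18. Besides these 2, the genes that fell were Acadvl, the first dehydrogenase of the pathway (-0.42, adjusted p 0.004), Dgat2, which makes triglyceride (-0.99, adjusted p 0.0092), and Plin2, a lipid droplet coat (-0.62, adjusted p 0.014, called in 5 of the 8 fits that each left out 1 library). Acsl3 and Ppard rose, and so did Ucp2, a call held in none of the 8 fits that each left out 1 library. The share that rose is near the 11.4% of all genes, and the share that fell is above the 9.08% of all genes.

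In the list of sterol and fatty acid synthesis, 38 genes were measured, of which 8 rose, against 11.4% of all genes, and 1 fell, with a median of 0.18. Srebf2, the transcription factor that switches on cholesterol synthesis, was at 11.3 and 12.8 RPKM against 18.9 and 17.8 in alpha cells and at 17.3 and 16.9 against 29.1 and 30.1 in beta cells, and rose by 0.70 ± 0.12 (adjusted p 0.0018). The times did not overlap. Dhcr7, a late step of cholesterol synthesis, and Scd2, a fatty acid desaturase, rose as well. Acat2, a thiolase, fell by 0.57 (adjusted p 0.022), called in 3 of the 8 fits that each left out 1 library. The rise was called for 4 genes without ZT12 beta replicate 2, for at most 6 without any other single library, and for 4 with length and GC content fitted.

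Of 37 measured genes for folding proteins in the endoplasmic reticulum (ER) and clearing those that misfold, 14 rose, against 11.4% of all genes, and 1 fell. Their median was 0.23, against -0.01 for all genes. In beta cells alone 12 rose, against 4.23% of all genes, and in alpha cells alone 3, against 2.48%. The difference between the cell types passed the test for none (8 at an unadjusted p under 0.05). The number that rose was 9 without ZT12 alpha replicate 2 and up to 14 without another library, and 14 with length and GC content fitted.

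Creld2, an ER chaperone, was at 24.8 and 24.8 RPKM against 34.5 and 36.6 in alpha cells and at 45.5 and 47.7 against 88.2 and 109 in beta cells. The gap was wider in beta cells, and the times did not overlap in either. Creld2 rose by 0.80 ± 0.10 (adjusted p 0.00032). Wfs1, the ER membrane protein lost in Wolfram syndrome, was at 7.69 and 8.06 RPKM against 11.9 and 10.3 in alpha cells and at 36.9 and 39.1 against 71.6 and 76.4 in beta cells, and rose by 0.72 ± 0.09 (adjusted p 0.00028). Hyou1, a large ER chaperone, was at 58 and 53 RPKM against 87.2 and 90.2 in alpha cells and at 163 and 162 against 252 and 282 in beta cells, and rose by 0.70 ± 0.10 (adjusted p 0.00036). Atf6b, a relative of the stress sensor ATF6, rose by 1.06 ± 0.14 (adjusted p 0.00032). Syvn1, the ubiquitin ligase that clears misfolded ER proteins, was named after its values were seen. It was at 7.26 and 6.34 RPKM against 12.3 and 10.8 in alpha cells and at 8.15 and 8.36 against 19.9 and 20 in beta cells, and rose by 1.02 ± 0.21 (adjusted p 0.0043). Herpud1, another factor of ER degradation, fell by 0.40 (adjusted p 0.033), a call held in none of the 8 fits that each left out 1 library. Hspa5, which encodes the main ER chaperone BiP and was also named after its values were seen, was at 333 and 306 RPKM against 292 and 340 in alpha cells, where the times overlapped, and at 501 and 510 against 722 and 833 in beta cells. It rose by 0.62 in beta cells (adjusted p 0.04), with a difference of 0.30 over both (adjusted p 0.085). Among stress-response regulators chosen in the same way, Xbp1 (0.09), Ddit3 (0.03), Atf4 (-0.21) and Trib3 (-0.81) did not pass. In the list of the amino acid response, which Atf4 drives, 26 genes were measured. None rose and 1, Sesn2, fell, against 11.4% and 9.08% of all genes, and Sesn2 was called in 3 of those 8 fits.

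Windows around the ER stress element (CCAAT and CCACG with 9 bases of any kind between them, a site chosen after the data were seen, searched on both strands) are shown for genes of this list. The element stood in 10 of the 32 list members with a matched promoter, against 0.119% of all promoters, 0.174% of all measured genes, 0.506% of genes that rose and 0.107% of genes that fell. The site is known from ER chaperone genes, so its place in this list is background. Of the 10, Creld2, Syvn1, Pdia6 and Ero1lb (the table's Ero1b) rose over both cell types, and the other 6, Hspa5 among them, were not called. The element is in capitals.
Creld2, rose by 0.80, chr15:88819500-88819558, plus strand, element on the opposite strand: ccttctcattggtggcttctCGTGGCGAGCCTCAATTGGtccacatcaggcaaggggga
Syvn1, rose by 1.02, chr19:6046512-6046570, plus strand: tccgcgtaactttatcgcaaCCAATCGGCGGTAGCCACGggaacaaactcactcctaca
Pdia6, rose by 0.50, chr12:17266471-17266529, plus strand: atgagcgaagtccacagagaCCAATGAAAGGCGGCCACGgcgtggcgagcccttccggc
Hspa5, 0.30 and not called, chr2:34772005-34772063, plus strand: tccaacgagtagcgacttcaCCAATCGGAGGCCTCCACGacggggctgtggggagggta
In these 4 windows the element begins 126, 44, 98 and 65 bases before the start.

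Of 26 heat shock genes, 8 rose, against 11.4% of all genes, and none fell. Their median was 0.27, with 9 of the 26 below 0, and 0.35 with length and GC content fitted. The number that rose was 5 without ZT12 beta replicate 2 and up to 8 without another library. Hsp90aa1, the inducible HSP90, was at 41 and 35.1 RPKM against 47.3 and 58.7 in alpha cells and at 45.3 and 41.9 against 71.2 and 85.7 in beta cells, and rose by 0.66 ± 0.16 (adjusted p 0.0094). Hsph1, a co-chaperone named after its values were seen, was at 9.52 and 8.67 RPKM against 18.1 and 16 in alpha cells and at 12.7 and 10.1 against 27.3 and 29.5 in beta cells, and rose by 1.12 ± 0.28 (adjusted p 0.012). Fkbp4, Hspa4l and Hsp90ab1 rose by 0.46 to 0.57. A separate list holds 2 cold-inducible genes, RNA-binding proteins that rise with mild cooling, and both fell, against 9.08% of all genes. Cirbp was at 39.6 and 48.5 RPKM against 22.7 and 25.5 in alpha cells and at 45.8 and 54.9 against 25.3 and 25.4 in beta cells, and fell by 0.92 ± 0.13 (adjusted p 0.00036). Rbm3 was at 8.49 and 9.36 RPKM against 5.79 and 4.63 in alpha cells and at 9.24 and 7.72 against 4.9 and 5.45 in beta cells, and fell by 0.74 ± 0.17 (adjusted p 0.0081). In neither gene did the times overlap.

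Genes of translation and respiration were counted by direction and by call. Of 80 cytosolic ribosomal protein genes, 79 had a negative difference, and 69 lay lower in both ZT16 libraries of both cell types (background 20.9%). In the test 6 passed, all of them lower, a share no larger than the 9.08% of all genes that fell. Fitted on the 8 libraries alone, 72 of the 80 were called lower and none higher, against 2947 of all 14027 genes called lower. The median of the 80 was -0.33, and -0.21 with length and GC content fitted. These are short transcripts, with a median of 1100 nt. The number called was 2 without ZT12 alpha replicate 2 and at most 5 without another library. Rpl3, a protein of the large subunit, was at 79.6 and 82.8 RPKM against 48.2 and 45.1 in alpha cells and at 55.9 and 57.6 against 37.6 and 37.8 in beta cells, and fell by 0.69 ± 0.10 (adjusted p 0.00045). Eif4b, an initiation factor outside these lists, was at 153 and 167 RPKM against 75.1 and 76.5 in alpha cells and at 81.9 and 91 against 54.7 and 52.6 in beta cells, and fell by 0.88 ± 0.08 (adjusted p 2.5e-05). Nop53, a ribosome assembly factor listed as Gltscr2, fell by 0.73 ± 0.09 (adjusted p 0.00016). Of 48 ribosome biogenesis genes, 6 rose and 5 fell, shares near the 11.4% and 9.08% of all genes. Among those that rose were Rrp12, Heatr1 and Utp20. With length and GC content fitted 2 rose and 5 fell, and Heatr1 and Utp20 were no longer called.

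Of 76 respiratory chain genes, 69 had a negative difference, and 56 lay lower in both ZT16 libraries of both cell types (background 20.9%). In the test 10 fell, a share near the 9.08% of all genes, and none rose. Fitted on the 8 libraries alone, 56 of the 76 were called lower and none higher, against 2947 of all 14027 genes called lower. The median of the 76 was -0.30, or -0.14 with length and GC content fitted. Their transcripts are short too, with a median of 1135 nt. Examples were Atp5c1, Cox7a2l, Cox6c and Ndufa7, genes of complexes V, IV and I, each called in at most 2 of the 8 fits that each left out 1 library. None was called without ZT12 alpha replicate 2, at most 5 without another library, and 4 with length and GC content fitted.

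**Figure D5:**
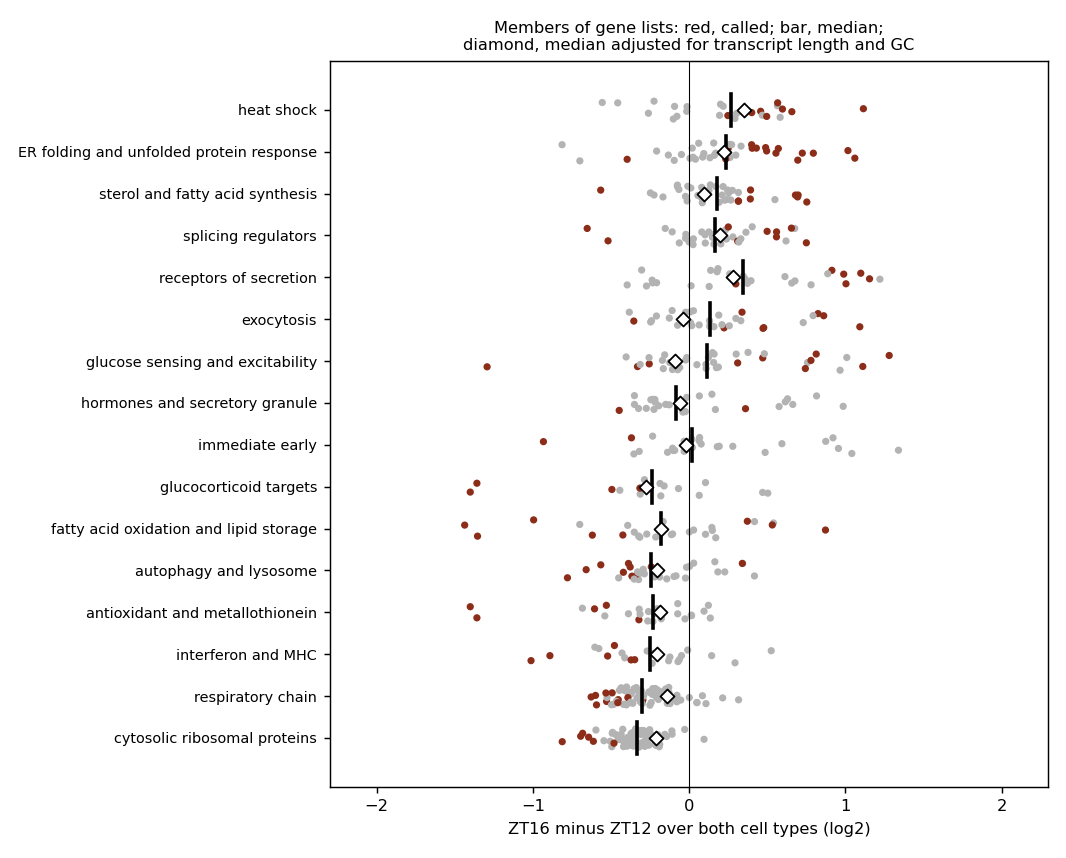
Log2 difference from ZT12 to ZT16 over both cell types (x axis) of the members of 16 gene lists (y axis), 1 point per gene, with called genes coloured, the median as a bar and the median with length and GC content fitted as an open mark. Cytosolic ribosomal proteins and the respiratory chain lie left of 0 with narrow spread (medians -0.33 and -0.30), and ER folding and heat shock lie right of it (0.23 and 0.27).

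The lists of autophagy, antioxidants, glucocorticoid targets and interferon genes held more genes that fell than rose. Over all genes 9.08% fell and 11.4% rose, the shares against which these counts are read. Of 31 autophagy and lysosome genes 9 fell and 1 rose (median -0.24), 3 of them called lower without ZT12 beta replicate 2 and at most 6 without another library. Bnip3, a mitophagy receptor, was at 21.8 and 21.6 RPKM against 11.1 and 14.8 in alpha cells and at 32.3 and 27.5 against 17.5 and 16.7 in beta cells, and fell by 0.78 ± 0.15 (adjusted p 0.0036). Ctsa also fell, and so did Sqstm1, called in 5 of the 8 fits that each left out 1 library. Of 25 antioxidant and metallothionein genes 5 fell and none rose (median -0.23), with 2 lower without ZT12 alpha replicate 1. Mt1, a metallothionein that binds zinc, was at 98.7 and 133 RPKM against 31.8 and 37.9 in alpha cells and at 358 and 278 against 155 and 141 in beta cells, and fell by 1.40 ± 0.23 (adjusted p 0.0013). Mt2 was at 27.3 and 35.7 RPKM against 9.44 and 9.05 in alpha cells and at 73.7 and 47.6 against 29.7 and 29.3 in beta cells, and fell by 1.36 ± 0.21 (adjusted p 0.00075). Both genes separated by time in both cell types. Among 16 glucocorticoid targets, which hold Mt1 and Mt2 too, 4 fell and none rose (median -0.24), the others being Fkbp5 (-0.49 ± 0.09, adjusted p 0.0024) and Tsc22d3 (-0.31, called in 3 of the 8 fits that each left out 1 library). Of 22 interferon and MHC genes 6 fell and none rose (median -0.25), led by Irf7 (-1.01 ± 0.22, adjusted p 0.005), and 2 were lower without ZT16 beta replicate 2.

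Among the receptors and the genes of vesicle release more rose than fell, with 11.4% of all genes rising and 9.08% falling. Of 29 receptors that act on secretion, 6 rose and none fell (median 0.35), with 4 to 7 higher as single libraries were left out, the fewest without ZT12 alpha replicate 2. With length and GC content fitted 5 of them rose and 2 fell (median 0.28). Ffar3, a short-chain fatty acid receptor, was at 0.813 and 0.698 RPKM against 1.56 and 1.39 in alpha cells and at 5.72 and 5.66 against 13.3 and 12.2 in beta cells, and rose by 1.00 ± 0.12 (adjusted p 0.0002). Igf1r, the receptor of insulin-like growth factor, was at 5.86 and 5.3 RPKM against 10.8 and 8.54 in alpha cells and at 17.4 and 17 against 44.2 and 47.8 in beta cells, and rose by 1.10 ± 0.15 (adjusted p 0.00035). Both receptors were lower in alpha than in beta cells throughout.

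Of 33 exocytosis genes 7 rose, against 11.4% of all genes, and 1 fell, with a median of 0.13 that turned to -0.04 with length and GC content fitted, and 4 rose without ZT12 alpha replicate 2. Unc13a, a priming factor of vesicle fusion, was at 8.8 and 9.24 RPKM against 18.4 and 18.7 in alpha cells and at 7.93 and 8.02 against 17.2 and 18.2 in beta cells, and rose by 1.09 ± 0.22 (adjusted p 0.0041). Vamp2, a vesicle SNARE named after its values were seen, was at 10.4 and 11.5 RPKM against 22 and 18.1 in alpha cells and at 13.1 and 14.7 against 25.7 and 24.7 in beta cells, and rose by 0.86 ± 0.20 (adjusted p 0.0076). Syt5, a calcium sensor of fusion, rose by 0.47 ± 0.10, and Rab37 fell by 0.35. Of 38 genes of glucose sensing and excitability 7 rose, against 11.4% of all genes, and 3 fell, against 9.08%, with a median of 0.12 that turned to -0.09 with length and GC content fitted, where 4 rose and 7 fell. Kcnma1, the BK potassium channel, was at 6.91 and 7.86 RPKM against 14.1 and 13.2 in alpha cells and at 13.5 and 12.5 against 20.9 and 20.7 in beta cells, and rose by 0.78 ± 0.11 (adjusted p 0.00044). Cacna1d, a calcium channel subunit, rose by 0.74 ± 0.19 (adjusted p 0.014, lost without ZT16 alpha replicate 1), and Pfkm, the muscle form of phosphofructokinase, fell by 0.33 (called in 4 of the 8 fits that each left out 1 library). Without ZT16 alpha replicate 1, 2 genes of this list rose, and without ZT12 alpha replicate 2 none fell. Of 26 genes for hormones and granule proteins 1 rose, Ptprn by 0.36, and 1 fell, Scg5 by 0.45, against 11.4% and 9.08% of all genes. Both calls were lost in every one of the 8 fits that each left out 1 library.

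Further genes named by their low p follow, before the list of cAMP-responsive genes. Pde10a, a phosphodiesterase, was at 2.23 and 1.89 RPKM against 8.04 and 8.27 in alpha cells and at 3.77 and 4.09 against 14 and 16.5 in beta cells. The ZT16 means, 8.15 and 15.3, were the highest of the 6 times in both cell types. Pde10a rose by 1.97 ± 0.25 (adjusted p 0.00029). Pde1c, a calcium-dependent phosphodiesterase, was at 2.77 and 2.83 RPKM against 5.27 and 5.92 in alpha cells and at 2.94 and 3.15 against 4.78 and 4.74 in beta cells, and rose by 0.82 ± 0.09 (adjusted p 8.4e-05). Gucy2c, a guanylate cyclase receptor, was at 0.73 and 0.621 RPKM against 2.08 and 1.58 in alpha cells and at 14.6 and 13.1 against 28.3 and 31.8 in beta cells, and rose by 1.24 ± 0.15 (adjusted p 0.00016). Of 19 cAMP-responsive genes 6 rose, against 11.4% of all genes, and 2 fell (median 0.32), with 2 to 4 higher as single libraries were left out, the fewest without ZT16 alpha replicate 1. Crtc1, a coactivator of CREB, rose by 0.95 ± 0.23 and Crem by 0.61 ± 0.16 (called in 4 of the 8 fits that each left out 1 library), while Pim3, a kinase, fell by 0.87 ± 0.17. Of 27 immediate early genes none rose and 2 fell, against 11.4% and 9.08% of all genes, with a median of 0.02. The 2 that fell were Klf10, by 0.93 ± 0.14 (adjusted p 0.00061), and Ier5, by 0.37 (called in 3 of those 8 fits). Mlxipl, the glucose-responsive factor ChREBP, was at 1.85 and 1.76 RPKM against 7.52 and 6.22 in alpha cells and at 28.8 and 31.6 against 73.8 and 70.8 in beta cells, and rose by 1.58 ± 0.38 (adjusted p 0.01), 1 of 17 genes of its list to rise, with Klf10 and Pklr, a pyruvate kinase, falling, the latter called in 1 of those 8 fits.

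Other genes with a low p had no list. Among those that rose were Osgin1, an oxidative stress gene (1.10 ± 0.12, adjusted p 0.0001), Cad, the first enzyme of pyrimidine synthesis (0.85 ± 0.10, adjusted p 0.00016), and Eps8l1, an actin regulator at 0.337 and 0.221 RPKM against 2.15 and 1.65 in alpha cells and at 0.404 and 0.242 against 1.56 and 1.41 in beta cells (2.37 ± 0.27, adjusted p 0.00013). Among those that fell were Glb1l2, a galactosidase relative at 14 and 14.2 RPKM against 7.73 and 8.16 in alpha cells and at 26.2 and 26.3 against 13.3 and 12.6 in beta cells (-0.92 ± 0.09, adjusted p 2.5e-05), and Rab31, a small GTPase of vesicle traffic at 5.6 and 5.6 against 3.15 and 3.15 in alpha cells and at 14.2 and 12.2 against 4.94 and 5.57 in beta cells (-1.07 ± 0.11, adjusted p 4e-05). In alpha cells Dynlrb2, a dynein light chain, was at 11.1 and 13.3 RPKM against 2.92 and 3.15 and fell by 1.88 (adjusted p 0.0028). Its beta levels, 1.23 and 1.74 against 0.577 and 0.801, gave -0.79 (adjusted p 0.07). Of 37 splicing regulators 7 rose, against 11.4% of all genes, Hnrnpc (0.56 ± 0.08) first among them, and 2 fell, Hnrnpa1 (-0.65 ± 0.13) and Hnrnpk. Without ZT12 alpha replicate 1, 3 of them rose.

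The summed level of beta cell markers in the alpha libraries was higher at ZT16 than at ZT12. The 13 beta cell markers summed to 1666 and 809 RPKM in the ZT12 alpha libraries and 4554 and 1959 in the ZT16 alpha libraries, 0.168% and 0.0841% of reads against 0.469% and 0.203%. In the alpha libraries of the other times the sum ranged from 1206 RPKM (ZT8 replicate 2) to 6137 (ZT4 replicate 1). In alpha cells 5 of the 13 were called, all higher, against 2.48% of all genes, and in beta cells none, against 4.23%. Over both cell types 4 were called, all higher, against 11.4% of all genes. Pdx1, a beta cell transcription factor, was at 2.78% and 2.2% of the beta mean in ZT12 alpha libraries and at 8.12% and 4.6% in ZT16 alpha libraries. Genes that are mainly expressed in beta cells and rose in alpha cells have this beside them. Adra2a, an adrenergic receptor, was at 0.261 and 0.348 RPKM against 1.07 and 1.03 in alpha cells, where it rose by 1.64 (adjusted p 0.0042), and at 29.9 and 30.5 against 34.2 and 34.6 in beta cells (0.19, adjusted p 0.67). Its alpha level was 0.863% and 1.15% of the beta mean at ZT12 and 3.12% and 2.99% at ZT16. Tmod1 in alpha libraries went from 6.91% and 7.16% to 16.5% and 17.2% of the beta mean. Mafa, a beta cell transcription factor, was at 0.611 and 0.875 RPKM against 6.7 and 2.49 in alpha cells and at 113 and 107 against 238 and 282 in beta cells, and rose by 1.73 over both (adjusted p 0.023), a call held in 2 of the 8 fits that each left out 1 library. Prlr, the prolactin receptor, was at 0.247 and 0.148 against 1.46 and 0.47 in alpha cells and rose by 1.15 over both (adjusted p 0.025), also held in 2 of the 8. The part of beta cell RNA in these alpha values was not tested.

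The alpha cell markers in beta libraries summed to 701 and 686 RPKM at ZT12 and 827 and 653 at ZT16. None of the 12 was called over both cell types, against 20.5% of all genes. Most of each sum was Ttr, at 531 and 576 RPKM at ZT12 and 478 and 453 at ZT16. Gcg in these libraries went from 93.1 and 40.5 RPKM to 284 and 135, without a call. In beta cells 6 of the 12 had a positive difference and 5 a negative one. Acinar markers summed to 174 to 655 RPKM in the 8 libraries, with none of 23 called over both cell types, against 20.5% of all genes. Markers of PP, endothelial and glial cells had none called over both cell types or in either, and those of stromal cells none over both. In alpha cells alone 1 of 6 stromal markers rose, against 2.48% of all genes. It was Col1a1, a collagen gene at 0.0503 and 0 RPKM at ZT12 and 0.331 and 0.185 at ZT16 (adjusted p 0.04). Some markers of other cell types rose over both, among them Ptprz1 and Hhex of delta cells and Laptm5 of immune cells, and Hhex was called in 2 and Laptm5 in 4 of the 8 fits that each left out 1 library. The part of such RNA in the step was not tested. The share of reads taken by the cells' own markers, most of it hormone RNA, went from 22.2% and 22.7% to 17.1% and 18.2% in alpha cells and from 24.8% and 25.7% to 19.5% and 19.6% in beta cells. In both cell types the ZT16 libraries lay below the ZT12 libraries, while neither Gcg in alpha cells (-0.41) nor Ins1 and Ins2 in beta cells (-0.43 and -0.39) was called.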

How the data were processed

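RNA from alpha and beta cells was sequenced as stranded, ribosome-depleted total RNA, per the labels' protocols. The authors deposited 1 log2 RPKM value per gene and library, a read number scaled by gene length and library size, on a log2 scale with a small count added. Per the submitters' processing notes, the authors used STAR, edgeR and the mm10 build. No source used here gives their versions, the annotation, the strand setting or the gene filter. The low values step by whole reads, so the reads behind all 14027 genes were recovered (largest deviation from a whole number 7.3e-08, tolerance 0.0001) and gave depth, RPKM and zeros (0.774% of values). Of the gene IDs, 13802 matched GENCODE M21, and 144 entries share a symbol. Counting reads of near-identical or antisense genes could not be checked.

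The log2 values as deposited were fitted with limma 3.58.1 in R 4.3.3, with 12 groups of 2 over all 24 libraries, so that all groups share 1 estimate of spread, and moderated with trend and robust settings. The step over both cell types is the mean of the alpha and beta steps. No library was dropped or imputed. The design assumed log2 values, and they were. Calls used a Benjamini-Hochberg adjusted p under 0.05. Named genes are the 15 with the lowest p in each direction over both cell types, the 8 in each direction in each cell type, all clock genes, up to 4 called genes of each of 38 lists, the 5 with the lowest p for the difference and the hormone genes, at 1 RPKM or more; others are named as chosen after their values were seen. A few genes that the rule names are not reported here. Predicted genes, 338 of them called over both, were counted and not named. The members and lists were chosen with earlier results of these data known.

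Tested on simulated data over 14027 genes, the fit over both cell types recovered 52.2% of genes changed 1.5-fold and 98.5% changed 2-fold, with 8 false calls. In alpha cells it recovered 14.9% and 88.1% with 13 false calls, and in beta cells 11.9% and 80.6% with 8. For the difference it recovered 1.49% at 1.5-fold, 28.4% at 2-fold and 98.5% at 4-fold, with 9. The simulated reads had the same dispersion in every gene and library and no length trend, and only genes above a minimum of reads were changed. The groups of the real data differ in spread, so these shares and false calls need not hold for them. Alternatives covered the added constant, a filter on low values, median centring, the 8 libraries alone, the replicate block, leaving out each library, a fold minimum, limma without trend and, chosen after seeing the data, transcript length and GC content, and voom on the recovered reads.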

Additional observations from a re-analysis of the deposited data

Results flagged for a closer look

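Rhou was singled out because the step differed between the cell types by a test of the difference: -1.25 on the log2 scale, alpha minus beta (limma, adjusted p 0.0014), with the ZT16 libraries lower in both alpha replicates and higher in both beta replicates.

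A further 7 genes were singled out by direction alone, because both ZT16 libraries lay on one side of both ZT12 libraries in alpha cells and on the other side in beta cells. The share of all genes with this opposite order was not counted, so other genes may show it too. Over all genes, 73.7% had the same sign in both cell types. Picking by direction is not a test. In the fit over all genes none passed, with adjusted p between 0.21 and 1. The step in alpha cells minus that in beta cells was 2.11 for Ins2, 2.09 for Ins1, -2.08 for Gcg and -1.04 for Ppy, the hormone genes. It was -1.03 for Pold2, 0.83 for Scnn1b and 0.66 for Per3. For Ins2 and Gcg the higher ZT16 values stood in the cell type that does not make the hormone, at no more than 1.93% and 0.287% of the mean of the cell type that does.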

How the results depend on the processing

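The step over both cell types gave 2876 calls, and 2690 to 3034 with another added constant, a filter on low values, median centring, the block on replicate number alone (2753) or limma without trend. It gave 1282 with a fold of at least 1.5, 6016 from the 8 libraries alone, whose smaller spread is then the only one used, and 1449 to 2079 as each library was left out. Alpha cells gave 523 calls, 3885 from the 8 libraries alone and 5 to 332 as each library was left out. Beta cells gave 978, then 4251 and 91 to 765. The difference gave 1, then 29 and 1 to 3. A group left with 1 library is assumed to vary like the others.

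Replicate numbers could mark pairs, but same-numbered alpha and beta libraries deviated together with correlations of 0.647, 0.422, 0.338, 0.104, 0.186 and 0.0413 from ZT0 to ZT20, and ZT12 and ZT16 libraries of a cell type with 0.0496 and -0.00782, so the pairing, which would need each correlation above 0.1, was not taken as given (estimated block correlation 0.373). With a replicate block within each time point the step over both cell types gave 1476 calls and the difference 34, with 1 respiratory chain gene lower, 3 splicing regulators higher and no gene of glucose sensing lower, and with the block together with length and GC content, chosen after seeing the data, 1299 and 50. Length and GC content alone gave 2678 calls and 3 for the difference, and voom on the recovered reads 2788. No called result named in the text changed direction under the settings run. With 2 libraries a group, the simulated test over both cell types found 52.2% of changes of 1.5-fold. For the difference between cell types it found 28.4% of changes of 2-fold. Changes of these sizes, as well as smaller ones, may therefore go uncalled. In the real data larger differences between cell types also did not pass, such as 2.11 on the log2 scale for Ins2.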
